A study of Mus musculus with 2 samples.

Results

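The genes described here are those of the mouse mitochondrial genome together with 4 pseudogenes on chromosome 1 that carry copies of mitochondrial sequence. Members were taken by name: every gene whose symbol starts with mt-, plus Gm10222, Gm28439, Gm28661 and Gm10925. This gave 41 of the 55536 genes in the tables: 13 mRNA genes, 2 rRNA genes, 22 tRNA genes and the 4 copies. The RNA came from bone marrow-derived macrophages, primary cells of strain C57BL/6J, treated with lipid A at 100 ng/ml for 50 minutes; lipid A is the part of bacterial lipopolysaccharide that Toll-like receptor 4 senses. Total RNA depleted of ribosomal RNA was sequenced from a fraction that the description calls nucleoplasmic and the other labels call nucleus. The single group had 2 libraries, labelled as separate biological replicates of 1 donor entry, made from 500 ng of RNA for replicate 1 and 1 µg for replicate 2; sex and age were not collected. Untreated cells were not analysed here, which means that none of the values below is a response to lipid A, and no test between groups exists; ratios between the replicates have no replicate check of their own.

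The mitochondrial genome is a small circle that encodes core subunits of the respiratory chain and the rRNAs and tRNAs of the organelle's own ribosome. Both strands are transcribed into long precursors, which are cut largely at the tRNAs that lie between the other genes; nearly all mRNAs come from the heavy-strand precursor, and mt-Nd6 is the mRNA of the other strand. Stretches of mitochondrial DNA have also been inserted into nuclear chromosomes, where they are annotated as pseudogenes and can be nearly the same in sequence as the genes they came from.

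The annotated copies lay side by side on the minus strand of chromosome 1 within 4663 bases (mm10, chr1:24611535-24616197) and kept the gene order of the mitochondrial genome. A search of the GENCODE M21 transcripts found 7 annotated copies there: the 4 members and also Gm28438, Gm28437 and Gm29216. Copies of mt-Co2, mt-Nd4l and mt-Atp6 were letter for letter the gene without its last 3 bases: Gm28661 held 681 of 684 bases, Gm10222 held 294 of 297 and Gm10925 held 678 of 681. The ends below, read 5′ to 3′, show what little separates a copy from its gene; capitals mark the TAA stop codon that the annotated copy does not include (mt-Co2 chrM:7637-7696 and mt-Nd4l chrM:10114-10173 on the plus strand, Gm28661 chr1:24614885-24614941 and Gm10222 chr1:24612407-24612463 on the minus strand).
Gm28661: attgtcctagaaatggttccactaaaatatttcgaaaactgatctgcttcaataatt
mt-Co2: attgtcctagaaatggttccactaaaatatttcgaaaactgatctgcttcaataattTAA
Gm10222: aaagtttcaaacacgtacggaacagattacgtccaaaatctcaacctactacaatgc
mt-Nd4l: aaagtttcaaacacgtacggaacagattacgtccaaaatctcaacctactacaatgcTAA

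Gm28439 held the first 876 of the 1378 bases of mt-Nd4 with no difference, so 502 bases of mt-Nd4 were found in the gene and not in the copy. Gm28437 held 783 of the 784 bases of mt-Co3 with no difference. The only substitutions in the matched bases were T3C between mt-Nd3 and Gm28438 and A1066T between mt-Co1 and Gm29216, where positions count from 1 at the 5′ end of the gene, the gene's base comes first and the copy's base last. Gm29216 matched the 483 bases of mt-Co1 from base 1063 to its end, and the opening bases of Gm29216 lie outside the match. The lines below show both substitutions in capitals, with mt-Nd3 at chrM:9459-9486 and mt-Co1 at chrM:6368-6418 on the plus strand, and Gm28438 at chr1:24613092-24613119 and Gm29216 at chr1:24616160-24616197 on the minus strand.
Gm28438: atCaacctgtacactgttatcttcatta
mt-Nd3: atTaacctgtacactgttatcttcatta
Gm29216: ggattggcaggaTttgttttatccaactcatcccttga
mt-Co1: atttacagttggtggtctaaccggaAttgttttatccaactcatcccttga

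A sequencing read that lies inside an identical stretch carries nothing that assigns it to the gene or to the copy. Of the 13 mRNA genes, 7 had an annotated copy on this stretch. For the other 6 (mt-Nd1, mt-Nd2, mt-Atp8, mt-Nd5, mt-Nd6 and mt-Cytb) no annotated transcript there matched over 200 bases or more, and bases between the annotated transcripts were not searched. For each gene a combined level with its copies was therefore also computed: the counts were summed and set on the length of the gene.

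The gene tables held 10342882 expected counts in gene rows for replicate 1 and 20495545 for replicate 2. A second deposited quantification held 19674642 and 28967125 estimated counts in gene rows. The 6 macrophage markers checked all reached 1 TPM (transcripts per 1000000, a level per length) in each library, and their median level was 636 TPM in replicate 1, against 439.6 TPM in replicate 2. On the TPM scale the median gene had a log2 ratio of replicate 1 over replicate 2 of 0.56, so levels in TPM include this common shift, and ratios between the replicates are given relative to the median gene. In bulk RNA, fewer mitochondria in the fraction and less RNA per mitochondrion cannot be told apart, and whether organelles were carried into the fraction was not tested.

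Mitochondrial genes held a sizeable part of these nuclear-fraction libraries. The 37 mitochondrial genes took 5.67% of expected counts in replicate 1 (95% Wilson interval 5.66 to 5.68) and 3.15% in replicate 2 (3.14 to 3.16), a mean of 4.41 ± 1.78% (SD, n = 2). The 4 copies took a further 1.28% in replicate 1 and 0.513% in replicate 2, a mean of 0.898 ± 0.544%. Together the 41 members held 6.95% and 3.66%, a mean of 5.31 ± 2.33%, so the difference between the replicates far exceeded the counting error that such intervals cover. Most of it was mRNA, at 5.61% and 2.85% of all counts, whereas the rRNAs left after depletion took 0.0631% and 0.294%. Of the 41 members, 19 reached 1 TPM in both libraries: the 13 mRNA genes, both rRNA genes and the 4 copies; 18.6% of all 55536 genes did so.

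The 2 rRNA genes stood below most of the mRNA genes per length. mt-Rnr1, the RNA of the small subunit of the mitochondrial ribosome (chrM:70-1024), had 3636 expected counts in replicate 1 and 26475 in replicate 2, or 440.5 and 1017 TPM. mt-Rnr2, the RNA of the large subunit (chrM:1094-2675), had 2890 and 33799 expected counts, or 189 and 715 TPM. Both were higher in replicate 2 in expected counts and TPM, although that library had the smaller mitochondrial share. In the TPM of the second quantification, mt-Rnr1 had 342.7 in replicate 1 and 260.2 in replicate 2. On that scale mt-Rnr2 had 233.6 and 259.8, and neither gene was set relative to the median gene. The rRNA counts were 0.00916 times the counts of the mRNA genes and 4 copies in replicate 1 and 0.0873 times in replicate 2, and the estimated counts gave 0.0157 and 0.124. As these libraries were depleted of ribosomal RNA, the counts describe what depletion left, and its part in the difference between the replicates was not tested.

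Among complex IV genes, the subunits of cytochrome c oxidase, mt-Co1 was the most abundant member by count. mt-Co1, the catalytic subunit (chrM:5328-6872), had 229187 expected counts in replicate 1 and 267189 in replicate 2, which were 39.1% and 41.4% of all counts of mitochondrial genes. Its level was 15399 and 5802 TPM, and Gm29216 added 25.9 counts in replicate 1 and none in replicate 2. For mt-Co1 the copy therefore left the level where it was.

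mt-Co2, the subunit that takes electrons from cytochrome c (chrM:7013-7696), stood near the bottom of the list by its own entry and near the middle or top once its copy was added. Alone it had 679 TPM in replicate 1, with 130.2 TPM in replicate 2; with Gm28661 added it had 7687 and 3206 TPM, a mean of 5447 ± 3168 TPM. Its place among the 13 mRNA genes by TPM moved to 7 and 3 with the copy, against 12 and 13 alone. mt-Co3, a further core subunit (chrM:8607-9390), had 838 and 1073 TPM alone and 4074 and 2020 TPM with Gm28437. The 3 complex IV genes with their copies held 40.2% of the summed mRNA and copy counts in replicate 1 and 50.9% in replicate 2.

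Complex V, the ATP synthase, has 2 mitochondrial genes, and they needed opposite care. mt-Atp6, part of the proton channel (chrM:7927-8607), had 659 TPM in replicate 1 and 299.3 TPM in replicate 2 by its entry alone, the lowest and next to lowest of the 13. With Gm10925 it had 8144 and 1860 TPM, a mean of 5002 ± 4444 TPM, and its place was 5 and 7. mt-Atp8, a small membrane subunit of the same enzyme (chrM:7766-7969), had 22477 and 2353 TPM, the highest TPM of all members in replicate 1. That value rested on an effective length of 20.0 bases in replicate 1 and 37.6 bases in replicate 2 for a gene of 204 bases. Its counts, 5044 and 2996, were modest, and per annotated length it ranked 12 of 13 in both libraries once the copies were added to the other genes.

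The 2 genes also overlap in the same strand by 43 bases (chrM:7927-7969), and reads inside the overlap can belong to either, or to Gm10925, which copies mt-Atp6 from its first base. The shared bases are in capitals below, from the start codon of mt-Atp6 to the stop codon of mt-Atp8, with 15 bases before and after (chrM:7912-7984, plus strand).
mt-Atp8 and mt-Atp6: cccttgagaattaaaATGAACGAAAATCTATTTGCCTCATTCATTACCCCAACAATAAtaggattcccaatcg

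Complex I, NADH dehydrogenase, has 7 mitochondrial genes, which with their copies held 45.7% of the summed mRNA and copy counts in replicate 1 and 37.7% in replicate 2. mt-Nd5, a proton-pumping subunit (chrM:11742-13565), had 5961 TPM in replicate 1 and 1640 TPM in replicate 2. mt-Nd1, at the junction of the membrane and peripheral arms (chrM:2751-3707), had 6519 and 1525 TPM. mt-Nd2, another proton-pumping subunit (chrM:3914-4951), had 3389 and 571 TPM. These 3 genes have no annotated copy on the stretch, and each was higher in replicate 1.

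mt-Nd4, the subunit next to mt-Nd5 in the pump (chrM:10167-11544), is copied over only part of its length. Alone it had 3999 TPM in replicate 1, with 1043 TPM in replicate 2, and its copy Gm28439 (chr1:24611535-24612410) had 6805 and 1024 TPM. The gene with its copy had 7853 and 1636 TPM, a mean of 4744 ± 4396 TPM. mt-Nd4l, whose reading frame ends inside the start of mt-Nd4 (7 shared bases, chrM:10167-10173), had 1658 and 1790 TPM alone and 9433 and 2630 TPM with Gm10222. These levels rested on effective lengths of 83.8 and 115 bases for a gene of 297 bases. With copies added, mt-Nd4l had place 3 and 4 of the 13 by TPM and place 11 and 10 per annotated length. mt-Nd3 (chrM:9459-9806) had 1209 and 475 TPM alone and 2431 and 748 TPM with Gm28438. With its copy it was 13 and 12 of the 13 mRNA genes in order of TPM.

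mt-Nd6, the complex I mRNA of the light strand, is annotated on the minus strand of the reference (chrM:13552-14070). It had 8518 TPM in replicate 1 and 3574 TPM in replicate 2, place 4 and 2 of the 13 with copies added. As the strand setting is not given in the sources used here, reads from mt-Nd6 and from heavy-strand RNA across the same bases cannot be told apart. mt-Cytb, the cytochrome b of complex III (chrM:14145-15288), had 5484 and 1433 TPM and held 7.74% and 6.54% of the summed mRNA and copy counts.

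**Figure D1:**
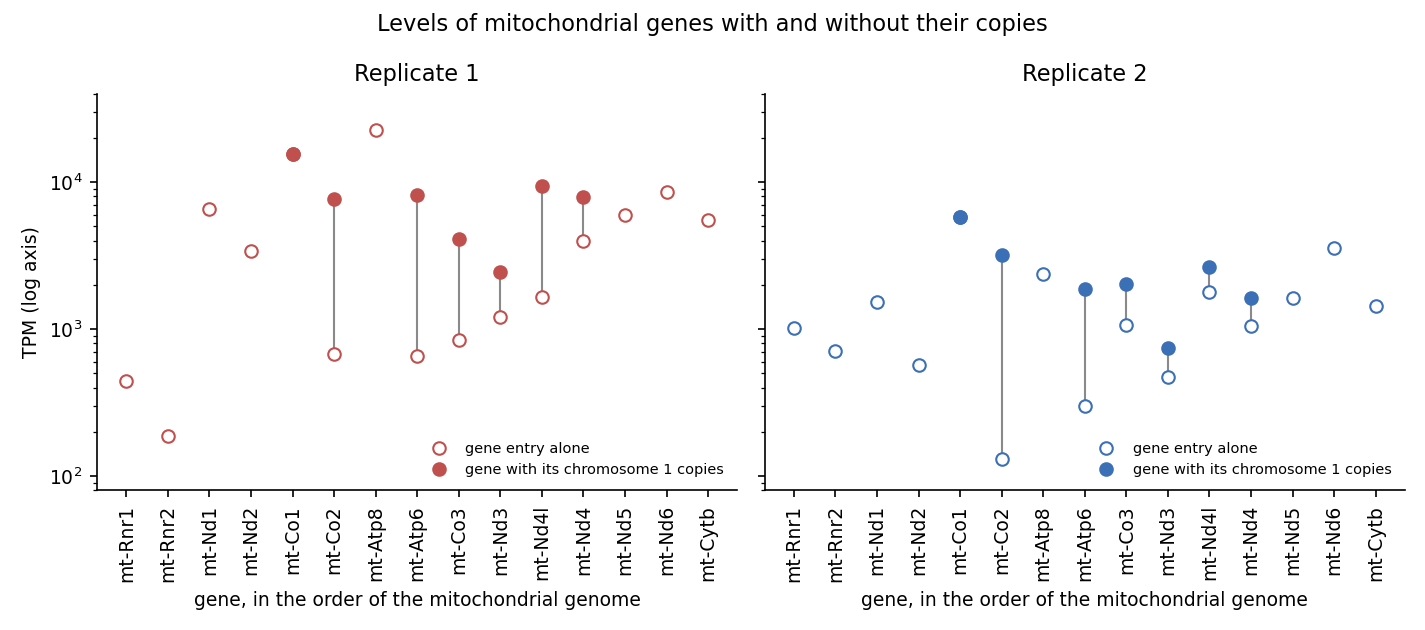
Level of each mitochondrial mRNA and rRNA gene in TPM (log axis) in replicate 1 (left) and replicate 2 (right), in the order of the genome. Open points are the gene entry alone and filled points the gene with its chromosome 1 copies on the length of the gene; mt-Co2 and mt-Atp6 lie at 679 and 659 TPM alone in replicate 1, against 7687 and 8144 TPM with their copies.

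The spread of levels among the 13 mRNA genes depended on how the copies were handled. By gene entries alone, the highest TPM was 34.1 times the lowest in replicate 1 and 44.6 times in replicate 2, and with all 7 copies added it was 9.25 and 10.2 times. Counts per 1000 annotated bases per 1000000, which do not use the effective length, gave 14.5 times in both libraries with the copies added. On that scale mt-Co1 was highest at 14344 and 8438, mt-Nd3 lowest at 987 and 581, and mt-Atp8 next to lowest at 2391 and 717. These 3 kept their places in both libraries, while the 10 genes between them changed order. The low places of mt-Nd3 and mt-Atp8 hold per annotated length, and both genes are short. mt-Nd3 has 348 bases and had effective lengths of 130 and 163 bases, and mt-Atp8 has 204 bases. The part of gene length in their places was not tested. By TPM with all copies, mt-Nd2 was the lowest in replicate 2. mt-Nd4 had place 2 in replicate 1 at 7167 and place 6 in replicate 2 at 2339. mt-Co2 had place 5 at 5661 and place 2 at 3856. Per annotated length, the estimated counts also put mt-Co1 highest and mt-Nd3 lowest in both libraries, 14.0 times apart in each. The order of neighbours between these ends did not hold beyond the difference between the libraries.

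The division of reads between each copy and its gene differed from pair to pair, between libraries and between quantifications. In the expected counts, the 4 copies held 68.7% of the counts of the 4 pairs in replicate 1 and 65.1% in replicate 2, a mean of 66.9 ± 2.5%. In the estimated counts they held 44.1% and 43.6%. The closeness of the libraries in these sums hid large shifts within single pairs.

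Gm10222 and mt-Nd4l shifted most. Gm10222 had 7318 expected counts against 1561 for mt-Nd4l in replicate 1, a copy share of 82.4%, and 3279 against 6989 in replicate 2, a copy share of 31.9%. The estimated counts gave Gm10222 none in either library, with 18700 and 12668 on mt-Nd4l. Gm10925 had 38745 expected counts against 3410 for mt-Atp6 in replicate 1, a copy share of 91.9%, and 26152 against 5015 in replicate 2, a copy share of 83.9%. In the estimated counts the same copy share was 0.042% and 1.91%, close to the other end of the scale.

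Gm28661 took most of the counts of its pair in both quantifications. It had 36510 expected counts against 3537.5 for mt-Co2 in replicate 1 and 51856 against 2195 in replicate 2, copy shares of 91.2% and 95.9%. Its share of the estimated counts was 76.0% and 71.4%. Gm28439 had 50132 expected counts against 52010 for mt-Nd4 in replicate 1 and 23937 against 42133 in replicate 2, copy shares of 49.1% and 36.2%, and 55.8% and 48.1% of the estimated counts. This is the pair in which the gene has 502 bases of its own.

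Of the 3 copies outside the named 4, Gm28437 and Gm28438 varied between libraries and quantifications, and Gm29216 stayed near 0. Gm28437 held 79.4% and 46.9% of the expected counts of its pair with mt-Co3, and 19.9% and 11.4% of the estimated counts. Gm28438 held 50.3% and 36.4% of the expected counts of its pair with mt-Nd3, and 0.327% and 0% of the estimated counts. Gm29216, which covers the end of mt-Co1 only, held 0.0113% of the expected counts of its pair in replicate 1 and 0 counts in replicate 2, and 0.0016% and 0.01% of the estimated counts.

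**Figure D2:**
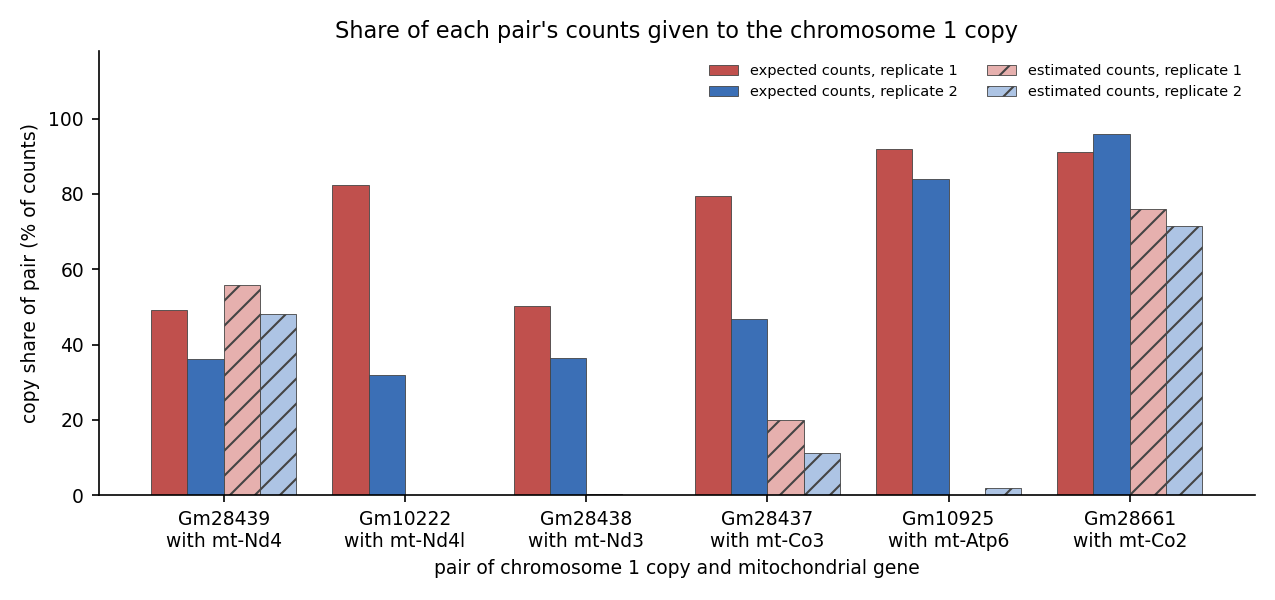
Share of the counts of each pair of copy and gene that was given to the chromosome 1 copy, in percent, from expected counts (solid bars) and estimated counts (hatched bars) in replicate 1 and replicate 2; the pair of Gm29216 and mt-Co1, at 0.0113% and 0%, is not drawn. Gm10925 stands at 91.9% and 83.9% in expected counts and at 0.042% and 1.91% in estimated counts.

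The sums over the pairs were far steadier than their parts. Reads inside an identical stretch are only divided between gene and copy, so this steadiness was largely given in advance. The expected count per 1000000 (CPM) of mt-Atp6 alone was 0.0968 times its estimated CPM in replicate 1 and 0.202 times in replicate 2, and for the sum with Gm10925 these were 1.20 and 1.23. For mt-Co2 alone the ratios were 0.459 and 0.176, and for the sum with Gm28661 they were 1.25 and 1.24. For mt-Nd4l alone they were 0.159 and 0.780, and for the sum with Gm10222 0.903 and 1.15. Over the 7 sums and both libraries the ratio ran from 0.903 to 1.27. This was close to the range of 0.988 to 1.32 in the 6 mRNA genes without an annotated copy on the stretch. The 7 genes with a copy taken alone ran from 0.0968 to 1.51. The 2 rRNA genes, also without an annotated copy on the stretch, had 0.891 and 1.07 (mt-Rnr1) and 0.56 and 0.754 (mt-Rnr2). Differences between the quantifications were thus not confined to genes with a copy.

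The gene tables also hold a posterior SD for each count, the uncertainty that the authors' quantification itself gave to its assignment of reads. It had the same size on both sides of each pair, while the sum of a pair was fixed. For mt-Co3 and Gm28437 it was 2327 counts in replicate 1 and 2100 counts in replicate 2, and for mt-Atp6 and Gm10925 it was 1448 and 1691 counts. It was 996 and 1666 counts for mt-Co2 and Gm28661, 191.5 and 613 for mt-Nd4l and Gm10222, and 270.0 and 291 for mt-Nd4 and Gm28439. In the 6 genes without an annotated copy on the stretch it was at most 0.1 counts. Of these, mt-Nd2, mt-Nd5, mt-Nd6 and mt-Cytb have less similar annotated copies, whole or in part, on other chromosomes. The posterior mean of mt-Atp6 was 6986 and 8748 counts, against 3410 and 5015 expected counts, so those tables hold more than 1 division of the same reads.

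Between the replicates, the mRNAs were higher in replicate 1 and the rRNAs lower. For ratios, 12818 genes with a mean of at least 1 CPM were used; of these 148 (1.15%) were more than 2-fold higher in replicate 1 than the median gene and 349 (2.72%) more than 2-fold lower. With all 7 copies added, 13 of the 13 mRNA genes were higher in replicate 1, by log2 ratios of 0.25 to 1.83 with a median of 1.15, and 7 passed 2-fold. With only the 4 member copies added, 12 of the 13 were higher. mt-Co3, whose copy is not among the 4, was then more than 2-fold lower, at -1.12. Nuclear protein-coding genes had a median of -0.02. With all 7 copies, all 13 also lay above the median gene on TPM, on estimated CPM and with TMM scaling. The lowest there, mt-Co3, was at 0.45, 0.09 and 0.21.

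mt-Nd2 had 3010 CPM in replicate 1 and 803.5 CPM in replicate 2, a log2 ratio relative to the median gene of 1.83 and the largest of the 13. mt-Atp8 had 488 and 146 CPM, a log2 ratio of 1.66. mt-Nd1 had 5217 and 1943 CPM, mt-Cytb 5502 and 2268 CPM, and mt-Nd5 10385 and 4442 CPM, with log2 ratios of 1.35, 1.21 and 1.15. The smaller differences were in mt-Co1, with 22159 and 13036 CPM and a log2 ratio of 0.70, and in the light-strand mt-Nd6, with 2764 and 1965 CPM and a log2 ratio of 0.42. Of these 7 genes, mt-Co1 has an annotated copy on the stretch and mt-Atp8 shares its last 43 bases with mt-Atp6 and Gm10925.

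In genes with a copy, the entry alone could give another direction. mt-Nd4l alone had 151 CPM in replicate 1 and 341 CPM in replicate 2, a log2 ratio of -1.24, and with Gm10222 it had 858.5 and 501 CPM, a log2 ratio of 0.70. mt-Co3 alone had 513 and 1060 CPM, a log2 ratio of -1.12, and with Gm28437 it had 2494 and 1995 CPM, a log2 ratio of 0.25. By their entries alone these were the 2 mRNA genes more than 2-fold lower in replicate 1, and with the copies none was. mt-Co2 went the other way: its log2 ratio was 1.60 alone and 0.48 with Gm28661. mt-Atp6 had a log2 ratio of 0.36 alone and 1.35 with Gm10925, mt-Nd4 had 1.22 and 1.54 with Gm28439, and mt-Nd3 had 0.34 and 0.69 with Gm28438.

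Taken by their own entries, the 4 copies were higher in replicate 1, with log2 ratios of 2.07 for Gm10222, 1.98 for Gm28439, 1.48 for Gm10925 and 0.41 for Gm28661; 3 of the 4 passed 2-fold. In the estimated counts Gm10925 lay the other way, at 1.43 CPM in replicate 1 and 23.6 CPM in replicate 2, and Gm10222 had none in either library. These values describe the assigned counts, since their reads cannot be told apart from those of the genes. mt-Rnr1 had 352 CPM in replicate 1 and 1292 CPM in replicate 2, a log2 ratio relative to the median gene of -1.95. mt-Rnr2 had 279 and 1649 CPM, a log2 ratio of -2.63. The rRNA genes and the mRNA genes thus lay on opposite sides of the median gene, on TPM, estimated CPM and TMM scaling as well, where mt-Rnr2 was at -2.47, -2.39 and -2.67.

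**Figure D3:**
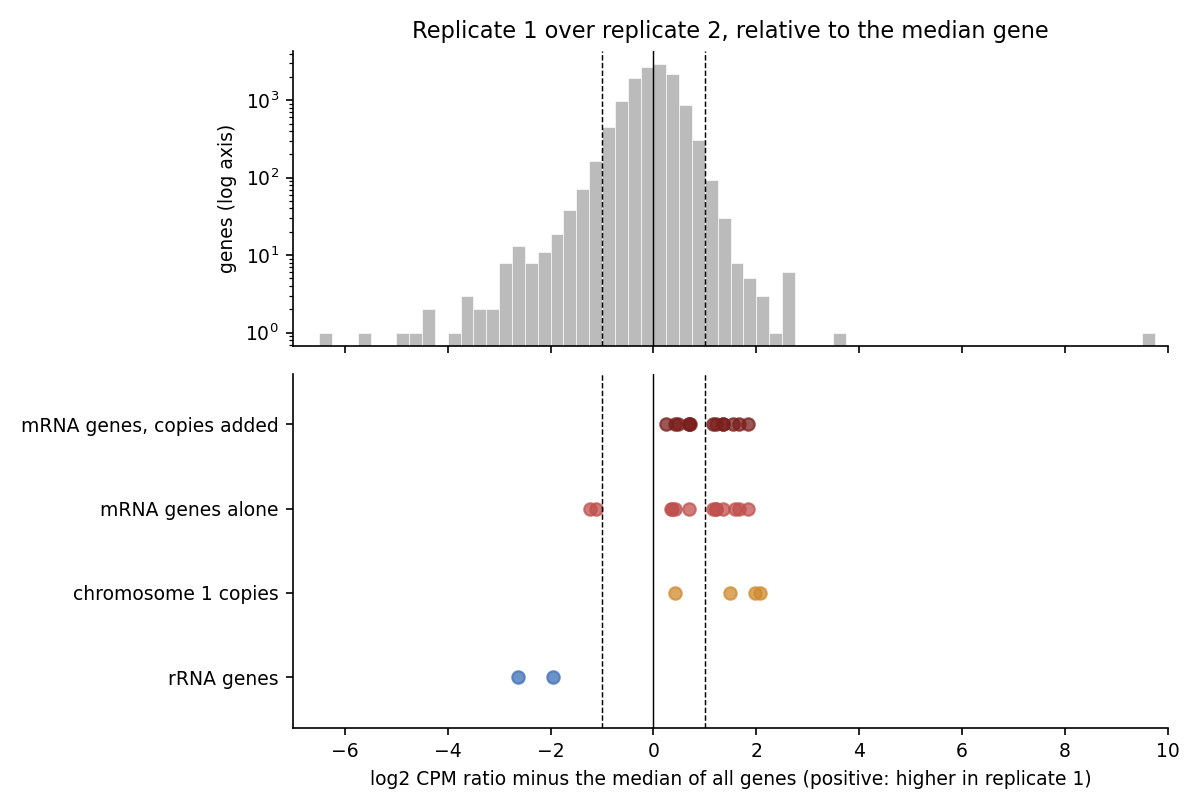
Log2 ratio of replicate 1 over replicate 2 in CPM, minus the median of all genes. The upper panel is a histogram of 12818 genes (log axis); the lower panel has 1 point per gene for the 13 mRNA genes with all copies added and alone, the 4 copies and the 2 rRNA genes, with dashed lines at 2-fold. With the copies added all 13 mRNA genes lie between 0.25 and 1.83, while the rRNA genes lie at -1.95 and -2.63.

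The 22 tRNA genes were visible in 1 of the 2 quantifications only. The gene tables listed all 22 at 0 expected counts with an effective length of 0; at 59 to 75 bases they are shorter than the labelled size range of 250 to 400 (no unit given), and a value of 0 there is no measure of the tRNA. The estimated counts put 1314 reads on them in replicate 1 and 1354 in replicate 2, or 0.00668% and 0.00467% of estimated counts. All 22 genes had a count in replicate 1 and 21 in replicate 2; the exception, named after its values were seen, was the aspartate tRNA mt-Td with 17 and 0 counts, where 0 allows up to 0.104 CPM in replicate 2.

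Most of these reads lay on the 8 light-strand tRNA genes, which are annotated on the minus strand of the reference. The 8 light-strand genes held 961 counts in replicate 1, 73.1% of the tRNA reads (95% Wilson interval 70.7 to 75.5), and the 14 heavy-strand genes 353. In replicate 2 they held 1253 counts, 92.5% (91.0 to 93.8), and the heavy-strand genes 101. The median light-strand gene had 110.5 and 95.5 counts, and the median heavy-strand gene 16.5 and 5 counts. The ranges overlapped, at 11 to 255 and 13 to 617 counts for the light strand against 1 to 83 and 0 to 23 for the heavy strand. As the strand setting is not given in the sources used here, RNA of either strand across these genes cannot be told apart.

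The 4 tRNA genes with most reads are printed below because they carry most of the light-strand signal; each is read 5′ to 3′ on the minus strand with the anticodon in capitals. They serve serine (mt-Ts1, chrM:6870-6938), cysteine (mt-Tc, chrM:5192-5257), proline (mt-Tp, chrM:15356-15422) and glutamate (mt-Te, chrM:14071-14139).
mt-Ts1: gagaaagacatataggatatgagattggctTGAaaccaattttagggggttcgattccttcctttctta
mt-Tc: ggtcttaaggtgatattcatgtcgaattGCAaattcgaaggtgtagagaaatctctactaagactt
mt-Tp: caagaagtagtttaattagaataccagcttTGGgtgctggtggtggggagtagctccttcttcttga
mt-Te: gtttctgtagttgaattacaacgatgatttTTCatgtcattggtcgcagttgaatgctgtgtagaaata

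mt-Ts1, next to the end of mt-Co1 on the opposite strand, had 210 estimated counts in replicate 1 and 617 in replicate 2, the most over both libraries. mt-Tc had 255 and 153 estimated counts, mt-Tp 105 and 217, and mt-Te 116 and 138. Beside mt-Tc on the same strand, the asparagine tRNA gene mt-Tn had 171 and 53 estimated counts. The tyrosine tRNA gene mt-Ty, on its other side, had 77 and 39. The 6 named genes are all light-strand genes, and per 1000000 estimated counts they did not move in 1 direction between the libraries. mt-Ts1, at 10.7 CPM in replicate 1 and 21.3 CPM in replicate 2, and mt-Tp, at 5.34 and 7.49 CPM, were higher in replicate 2. mt-Tc, at 13.0 and 5.28 CPM, mt-Tn, at 8.69 and 1.83 CPM, mt-Te, at 5.90 and 4.76 CPM, and mt-Ty, at 3.91 and 1.35 CPM, were higher in replicate 1.

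**Figure D4:**
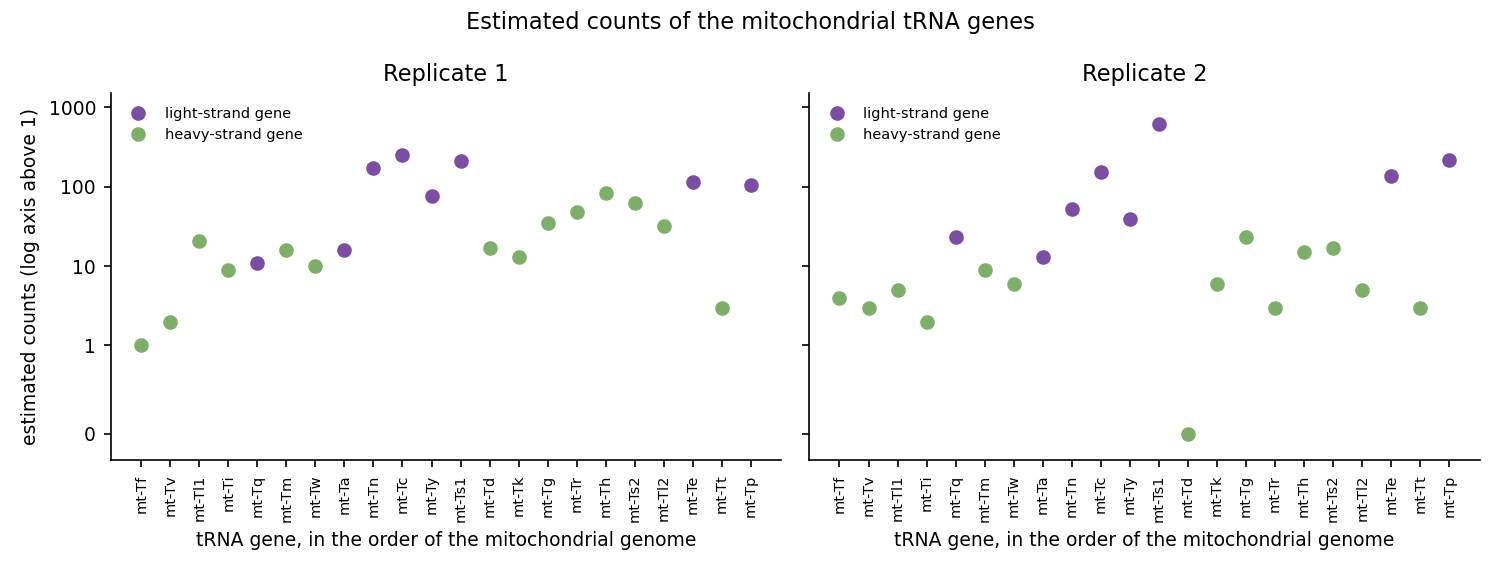
Estimated counts of the 22 mitochondrial tRNA genes in replicate 1 (left) and replicate 2 (right), in the order of the genome, on an axis that is logarithmic above 1. Purple points are the 8 light-strand genes and green points the 14 heavy-strand genes; mt-Ts1 reaches 210 and 617 counts, and mt-Td lies at 0 in replicate 2.

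Nuclear genes that serve the mitochondrion were detected at lower levels. All 20 nuclear-encoded respiratory chain subunits on the list reached 1 TPM in each library; their median level was 10.3 TPM in replicate 1 and 8.44 TPM in replicate 2, against medians of 7687 and 1860 TPM for the 13 mitochondrial mRNA genes with all 7 copies. In the other quantification the medians of the 13 genes with their copies were 4292 and 380.9 TPM. Medians of the nuclear subunits on that scale are not given here, so these 2 values have no nuclear counterpart. In estimated CPM relative to the median gene, the 13 genes had a median log2 ratio of 0.96 between the replicates. The highest by mean was Atp5b, the catalytic beta subunit of ATP synthase, at 75.4 and 43.4 TPM, and the lowest Ndufa9, an accessory subunit of complex I, at 3.22 and 1.68 TPM. Relative to the median gene the median log2 ratio of the 20 subunits between the replicates was -0.35. Of the 20, 0 were more than 2-fold higher in replicate 1 and 1 was more than 2-fold lower. Over all genes these shares were 1.15% and 2.72%, and a list of 20 is too small to be set apart from them.

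Of 14 genes of mitochondrial transcription and genome maintenance, 6 reached 1 TPM in both libraries, led by Mterf3, of the mitochondrial termination factor family, at 25.7 and 11.0 TPM. Polg, the mitochondrial DNA polymerase, had 19.5 and 11.6 TPM, and Twnk, the replicative helicase, had 0.63 and 0.36 TPM, the lowest by mean. Of 18 genes of mitochondrial RNA processing and decay 12 reached 1 TPM, among them Fastk, of the FAST kinase family, at 17.6 and 9.59 TPM and the poly(A) polymerase Mtpap at 9.87 and 5.88 TPM. Of 16 mitochondrial ribosomal protein genes 12 did, with Mrps9 highest at 12.0 and 5.95 TPM. Their median log2 ratios relative to the median gene were -0.09, -0.03 and -0.23, over the 12, 17 and 16 genes with a ratio. Over the 3 lists 0 genes were more than 2-fold higher in replicate 1, and 1, 0 and 1 were more than 2-fold lower. The shares over all genes were 1.15% and 2.72%, and lists of this size are too small to be set apart from them. Cytoplasmic ribosomal protein mRNAs, whose nuclear and cytoplasmic RNA cannot be told apart here, had 41.0 and 32.5 TPM at the median. Their median log2 ratio was -0.37. The 5 nuclear retained long noncoding RNAs on the list had 365.3 and 247.6 TPM at the median and a median log2 ratio of 0.22. The part of cytoplasmic RNA in the mitochondrial values was not tested.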

How the data were processed

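Ribosomal RNA-depleted total RNA of 2 replicates of 1 group was analysed, with groups taken from the labels. The authors deposited expected counts and TPM per gene in the RSEM column layout, with posterior mean counts, their posterior SD and effective lengths, and estimated counts with TPM per transcript in the kallisto layout, per the file headers; their readme files name mm10 and annotation M21. Which programs, versions, strand settings or filters were used is not given in the sources used here. Estimated counts were summed per gene. Left out of all denominators were 26345 rows that name no gene (0.504% of the replicate 1 expected counts and 0.0968% of those of replicate 2); 0 columns of other series were present. CPM is counts per 1000000 counts of gene rows; ratios used log2(CPM + 1), which understates differences of low genes, minus the median over genes with a mean of at least 1 CPM. Copies were GENCODE M21 transcripts (mm10) that matched the transcript of a mitochondrial gene in BLAST+ 2.17.0, at 200 bases and 90% identity or more. Mitochondrial bases outside the annotated genes were not searched. Printed sequences come from the same transcripts. Python 3.11.15, pandas 2.3.3, numpy 2.4.6 and SciPy 1.17.1 were used, and edgeR 4.0.16 in R 4.3.3 for TMM factors only, on expected counts rounded to whole numbers; steps were tested on simulated data. Wilson intervals (95%) and the limit for a count of 0 (3 counts: 0.290 CPM in replicate 1 and 0.146 CPM in replicate 2) cover counting error alone, as PCR duplicates could not be recognised without molecular identifiers. All mRNA, rRNA and copy entries were named, the 6 tRNA genes with most estimated counts, and from the 7 context lists (91 genes) genes among the 3 highest and 2 lowest by mean TPM. Members and lists were chosen with earlier results of these data known. With 1 group of 2 there is no test: values, SDs and ratios are descriptions. Alternatives were the other quantification, TPM, other denominators, centres, pseudocounts and scalings, each replicate left out, and, chosen after seeing the data, all 7 copies, posterior mean counts, and the combined level of gene and copies.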

Additional observations from a re-analysis of the deposited data

How the results depend on the processing

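The copy share of the summed counts of the 4 pairs depended most on processing: its mean was 66.9% in expected counts, 43.9% in the estimated counts, 73.8% in TPM and, in alternatives chosen after seeing the data, 62.3% in posterior mean counts and 30.4% over all 7 pairs. The share of the 4 copies was 1.80% of TPM against 0.898% of expected counts, and 0.479% in the estimated counts. The other quantification put 38 members at 1 TPM or more in both libraries, against 19, and for the short tRNA genes this can rest on a few reads. The share of all genes at that level in the other quantification is not given here, so the 38 have no background to be read against. The median log2 ratio of the 13 mRNA genes with the 4 copies, 1.15, was 0.96 in estimated counts and 1.31 in TPM; it moved by 0.1 or less under the other settings. Leaving out 1 replicate gave 3.15% to 5.67% for the mitochondrial share, 0.513% to 1.28% for the copies, 3.66% to 6.95% for both together and 65.1% to 68.7% for the copy share. Of the 19 levels, 5 moved by more than the SD in the other quantification and 1 in counts per 1000 bases. Where the libraries lay far apart the SD was large, and a large change could stay within it. In the other quantification the mean level of Gm10222 went from 4440 TPM to 0 (SD 5063). That of mt-Atp8 went from 12410 to 3785 TPM (SD 14230). Neither is among the 5. Of 7 genes with a copy, 6 moved with their copies added. The causes were not tested. No paired analysis was possible because there is 1 group. Depth did not limit the mRNA and rRNA genes, with at least 1561 counts each, but tRNA values rest on 0 to 617 counts.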

Other observations

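Outside the chromosome 1 stretch, 8 annotated genes matched a mitochondrial gene over at least 200 bases at 90% identity or more, on chromosomes 11, 13, 2 and 4. None had 100 expected counts in both libraries, and 6 of the 8 had 0 expected counts in both. Together they had 23.2 expected counts in replicate 1 and 67.1 in replicate 2, against 132706 and 105224 in the 4 chromosome 1 copies. The 2 with any count, named after their values were seen, lie on chromosome 2: Gm13340 had 17.1 and 57.9 expected counts and is 97.6% identical to mt-Co1 over 1545 bases, and Gm13341 had 6.1 and 9.16 expected counts and is 95.9% identical to mt-Co2. In the estimated counts Gm13340 had 129.8 and 163.5. In estimated counts, 1 TPM or more in both libraries was reached by 38 of the 41 members. The share of all genes that did so in that quantification is not given here. For genes as short as the tRNAs this level can rest on a few reads: mt-Tf had 1 and 4 estimated counts at 1.32 and 1.61 TPM.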
